A study of Homo sapiens with 6 samples.

Results

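Exposure of THP1 cells to withaferin A (WFA) for 6 h was followed by higher transcript levels of most factors and effectors of the integrated stress response, with the exception of CEBPG and PPP1R15B. The 10 genes described here are 5 transcription factors (ATF4, DDIT3, which encodes CHOP, ATF3, ATF5 and CEBPG) and 5 of their direct effectors (TRIB3, PPP1R15A, PPP1R15B, DDIT4 and SESN2). They were chosen by name, from knowledge of the pathway and with earlier results of these data known, out of 26485 genes listed by symbol. All 10 were listed and all 10 passed the filter on low counts, as 12854 genes did. THP1 is a human acute monocytic leukemia cell line, and the cells were given either WFA, a steroidal lactone, or its vehicle DMSO. Each group holds 3 libraries, prepared from purified total RNA of 3 independent experiments, and neither group carries a genetic change made for the study. For the WFA concentration the sample labels read 1 mM and the study's methods 1 μM. Same-numbered DMSO and WFA libraries carry the same date code in the labels and are called pairs 1, 2 and 3 here.

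The integrated stress response starts when one of several kinases phosphorylates the translation factor eIF2. General protein synthesis then falls while translation of a few messages, ATF4 among them, is favoured because of short upstream reading frames. ATF4 pairs with other basic leucine zipper (bZIP) factors and activates genes of amino acid supply, redox balance and, through CHOP, growth arrest and cell death. Because much of the control of ATF4, ATF5 and CHOP is translational, their transcript levels give only part of their activity. The assay reads RNA from whole cultures, so a change per cell and a change in the share of responding cells cannot be told apart.

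Total counts were between 11006035 and 13872810 per library. All 9 markers of monocytic and myeloid cells, among them LYZ, CSF1R and CD68, had at least 10 counts in every library, with a summed level of 2390 to 2916 CPM with DMSO and 2163 to 2933 with WFA, most of it from LYZ. CD33, CD14 and CSF1R were lower with WFA (log2 fold changes of -0.85, -1.22 and -0.40, edgeR adjusted p = 6.99e-06, 0.00165 and 0.00238) and CD68 was higher (0.37, edgeR adjusted p = 0.00528), and their part in other results was not tested. CPM is edgeR's library-size-normalized count, in its usual CPM unit, with TMM factors applied to the library totals. Of 15 markers of other lineages, 11 never exceeded 3 counts and 5 were at 0 in each library. Their summed level was 1.48 to 2.75 CPM with DMSO and 10.6 to 14.1 with WFA, of which the collagen gene COL1A1 made up 8.54 to 12.6 in the WFA libraries. The partner collagen gene COL1A2 was at 0 throughout, and the part of COL1A1 in other results was not tested. The 100 most counted genes held 16.8 to 19.2% of the counts with DMSO and 23.0 to 23.2% with WFA.

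Of the 10 genes, 8 were higher and 1 was lower with WFA in edgeR's quasi-likelihood test (Benjamini-Hochberg adjusted p-value under 0.05), compared with 25.8% and 24.7% of all genes tested. With the replicate number as a block, 8 and 1 were again higher and lower, against 30.2% and 28.8% of all genes tested. A rise over 2-fold was found for 6 of them (PPP1R15A, SESN2, ATF3, DDIT3, DDIT4 and TRIB3), against 8.11% of all genes tested, and no member was over 2-fold lower, against 5.20%. The median log2 fold change of the 10 genes was 1.41, and that of all tested genes was 0.022. In 8 of the genes every WFA library lay above every DMSO library, which held for 29.6% of all genes tested, and in 1 gene every WFA library lay below, which held for 28.5%. The median over the 10 genes was 0.85 in pair 1, 1.12 in pair 2 and 1.78 in pair 3. Without WFA replicate 3 the median was 1.09, 7 genes were higher, 5 of them over 2-fold, and 0 were lower in edgeR's test, also at an unadjusted p-value under 0.05. Of all 13021 genes tested in that fit, 2943 were higher and 2815 lower. In DESeq2 over all libraries 8 members were higher and 1 lower, against 2957 and 3064 of all 18328 genes with a p-value.

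**Figure D1:**
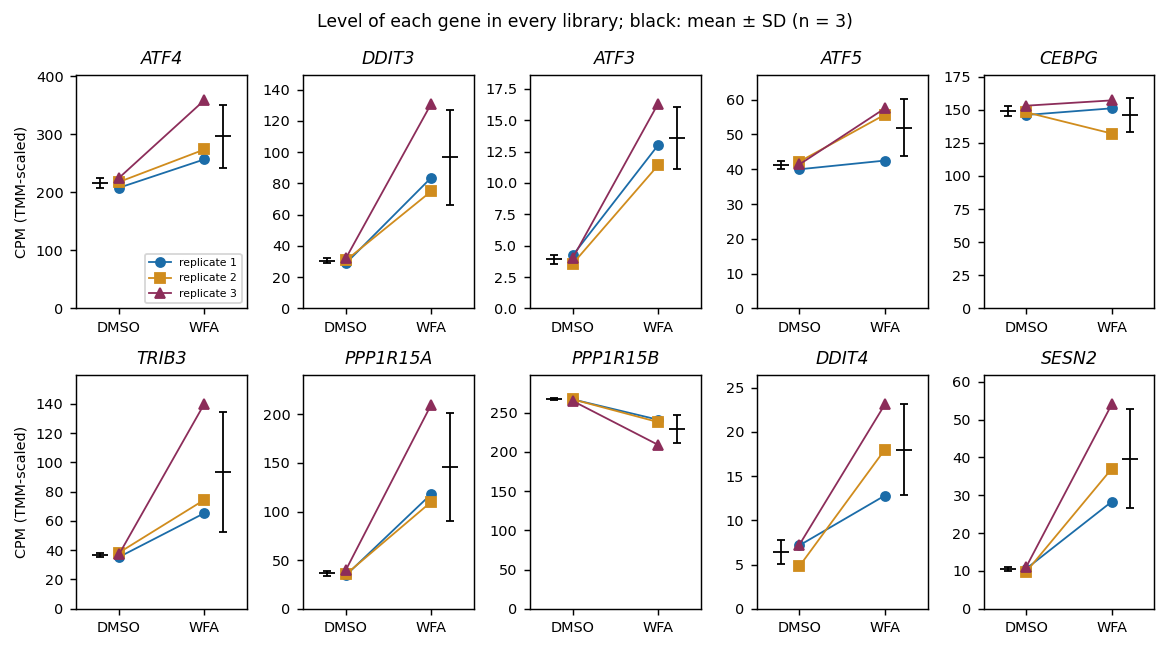
Level of each of the 10 genes in every library, in CPM on a linear axis that starts at 0, with thin lines joining the DMSO and WFA libraries of one pair and black bars for the mean ± SD of 3 libraries. Except for DDIT4, the DMSO libraries lie close together, and WFA replicate 3 is the highest WFA library in 9 of the 10 panels.

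The promoters of the members are shown where they hold a site known to be used by these factors. RefSeq promoter windows on GRCh38.p14, from 250 bases before to 50 bases after a transcript start, were found for all 10 genes. The composite site read by C/EBP-ATF dimers, spelled TGATGNAA on either strand, was present for 3 of the 10 genes and for 4.46% of all 27305 symbols with a window. A gene counted if any of its windows held the site, and the number of windows per gene was not matched. Of all 35116 windows, 3.62% held the composite site. The cyclic AMP response element TGACGTCA, which reads the same on both strands, was present for 1 of the 10 and for 2.25% of all symbols. The longer endoplasmic reticulum stress element was found for 0 of the 10 and for 0.0916% of all symbols. The 4 matches are printed 5′ to 3′ on the strand of the gene, with the matched site in capitals, and none overlapped another.
ATF3, chr1:212565205-212565234, plus strand: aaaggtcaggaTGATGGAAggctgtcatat
CEBPG, chr19:33374060-33374089, plus strand: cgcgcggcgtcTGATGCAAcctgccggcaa
PPP1R15B, chr1:204412026-204412055, minus strand: cccgccccggcTGATGCAAcctcacgctgc
PPP1R15A, chr19:48872352-48872381, plus strand: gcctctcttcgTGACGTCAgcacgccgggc
In GENCODE 29, on the same assembly, the CEBPG match lies in an intron of the gene and the other 3 matches lie upstream of their gene. Counted from the RefSeq start as base 0, the match begins at -191 in ATF3, -42 in CEBPG, -227 in PPP1R15B and -58 in PPP1R15A. The 3 genes with the composite site thus include one that rose (ATF3), one that was lower (PPP1R15B) and one that did not pass the test (CEBPG). A match is a description of these windows, and sites outside them were not searched.

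Among the transcription factors, ATF4 itself had the highest level per kilobase of exon and rose modestly. ATF4 (chr22:39519695-39522685, plus strand, GENCODE 29 on GRCh38) is the central activator of the response. Its level was 208, 218 and 225 CPM in DMSO replicates 1, 2 and 3, and 257, 274 and 359 CPM in the WFA replicates. The groups did not overlap, and WFA replicate 3 stood well above the other WFA libraries. The mean went from 217 ± 8.71 to 297 ± 54.5 CPM (SD, n = 3 each). Its log2 fold change was 0.45 (SE, the standard error, 0.11, edgeR adjusted p = 0.00372). That change was 0.29 without WFA replicate 3 (edgeR adjusted p = 0.0152), and it was 0.31, 0.33 and 0.67 in pairs 1, 2 and 3.

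DDIT3 (chr12:57516588-57521737, minus strand) encodes CHOP, a C/EBP family member that ATF4 induces and that is linked to cell death under lasting stress. DDIT3 stood at 28.8, 30.7 and 32.0 CPM with DMSO and at 83.7, 75.0 and 131 CPM with WFA, in the order of the replicates. Every WFA library held over 2 times the level of any DMSO library. The log2 fold change was 1.66 (SE 0.17, edgeR adjusted p = 1.07e-06), or 3.17-fold, with 2.90-fold, 2.43-fold and 4.09-fold in pairs 1, 2 and 3. Exons of MARS and MBD6 on the opposite strand cover 27.2% and 4.44% of the exon length of DDIT3, and the library kit does not mark strand. MARS, a tRNA synthetase gene, had 113 ± 7.54 CPM with DMSO and 108 ± 17.7 with WFA (SD, n = 3 each, edgeR adjusted p = 0.633). MBD6 had a log2 fold change of 0.56 (SE 0.14, edgeR adjusted p = 0.00314). The part of these genes in the DDIT3 count was not tested.

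ATF3 (chr1:212565334-212620777, plus strand) is a stress-induced bZIP factor that acts largely as a repressor, and it had the lowest level per kilobase of the 5 factors. It had 60, 45 and 48 counts in the DMSO libraries and 159, 142 and 175 in the WFA libraries, or 4.22, 3.55 and 4 against 13.0, 11.4 and 16.3 CPM. No WFA library came near the DMSO range. The log2 fold change was 1.78 (SE 0.18, edgeR adjusted p = 1.38e-06), and the 3 pairs gave 1.59, 1.64 and 1.98.

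ATF5 and CEBPG moved little. ATF5 (chr19:49928702-49933935, plus strand), an ATF4 relative that also acts in the mitochondrial stress response, had 40, 42.2 and 41.4 CPM with DMSO and 42.5, 55.7 and 57.5 CPM with WFA. WFA replicate 1 lay just above the highest DMSO library, and the other WFA libraries were clearly above it. Its log2 fold change was 0.33 (SE 0.11, edgeR adjusted p = 0.0244), with 0.09, 0.40 and 0.47 in pairs 1, 2 and 3. That call was lost without WFA replicate 3, where the log2 fold change was 0.26 (edgeR adjusted p = 0.103), and also without any one of DMSO replicates 1, 2 and 3 or WFA replicate 2 (edgeR adjusted p = 0.0815, 0.0512, 0.0553 and 0.084). Exons of NUP62 on the opposite strand cover 21.9% of the exon length of ATF5, and NUP62 was lower with WFA (log2 fold change of -0.72, SE 0.08, edgeR adjusted p = 5.26e-06). Its part in the ATF5 count was not tested.
CEBPG (chr19:33373330-33382686, plus strand), a C/EBP factor without an activation domain of its own that dimerizes with ATF4, had 146, 148 and 153 CPM with DMSO and 151, 132 and 157 CPM with WFA. The groups overlapped, and the lowest of the 6 libraries was WFA replicate 2. The log2 fold change was -0.02 (SE 0.09, edgeR adjusted p = 0.835), and its sign differed between pairs (0.05, -0.17 and 0.03).

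Among the effectors, the pair of eIF2 phosphatase subunits moved in opposite directions. PPP1R15A, also known as GADD34, and PPP1R15B, also known as CReP, each bring protein phosphatase 1 to eIF2 and so end the response. The first is known as the stress-inducible form and the second as the constitutive one. PPP1R15A (chr19:48872392-48876057, plus strand) had 34.3, 35.3 and 39.7 CPM with DMSO and 118, 110 and 210 CPM with WFA. The gene rose with a log2 fold change of 2.0 (SE 0.19, edgeR adjusted p = 7.12e-07) and 3.43-fold, 3.10-fold and 5.27-fold changes in pairs 1, 2 and 3.
PPP1R15B (chr1:204403387-204411791, minus strand) had 267, 267 and 265 CPM with DMSO and 241, 238 and 209 CPM with WFA. The DMSO libraries were nearly equal, with an SD of 0.427% of the mean, and every WFA library lay below them. The log2 fold change of -0.22 (SE 0.09) passed the threshold narrowly (edgeR adjusted p = 0.0476). It lost the call without WFA replicate 2 or 3 or any one DMSO library, with log2 fold changes between -0.24 and -0.15 (edgeR adjusted p from 0.0587 to 0.171).
The log2 ratio of PPP1R15A to PPP1R15B was -2.96, -2.92 and -2.74 in the DMSO libraries and -1.03, -1.12 and 0.00 in the WFA libraries. WFA replicate 3 stood apart from the other WFA libraries, and the groups did not overlap. The mean ratio was -2.87 ± 0.12 with DMSO and -0.71 ± 0.62 with WFA (SD, n = 3 each), a difference of 2.15 on the log2 scale. By exact permutation (two-sided) p was 0.1, and 0.1 after adjustment over 3 ratios, which is the smallest value that 3 libraries against 3 allow. That permutation ignores the pairs. An exact sign-flip test within pairs gave p = 0.25 for each of the 3 ratios, the smallest value that 3 pairs allow.

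**Figure D2:**
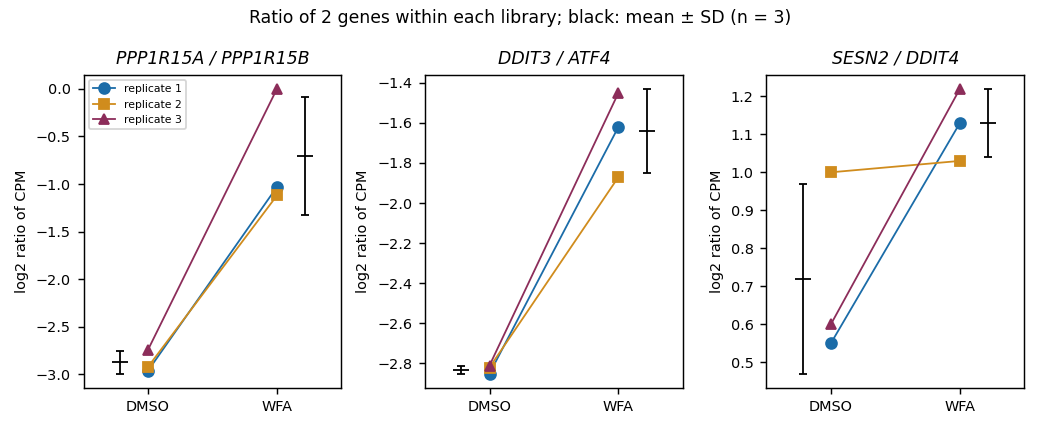
Log2 ratio of CPM between 2 genes within each library, for PPP1R15A over PPP1R15B, DDIT3 over ATF4 and SESN2 over DDIT4, with black bars for the mean ± SD of 3 libraries. Each ratio is higher in every WFA library than in every DMSO library, for SESN2 over DDIT4 only narrowly (1.03 against 1.00). PPP1R15A over PPP1R15B reaches 0.00 in WFA replicate 3.

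TRIB3 (chr20:362835-397559, plus strand), a pseudokinase induced by ATF4 and CHOP that in turn restrains ATF4, was the member that differed most between experiments. TRIB3 was measured at 35.3, 38.3 and 37.1 CPM with DMSO and at 65.3, 74.4 and 140 CPM with WFA. WFA replicate 3 held 1.89 times the level of the next WFA library. The log2 fold change was 1.34 (SE 0.21, edgeR adjusted p = 8.38e-05), and the pairs gave 1.85-fold, 1.94-fold and 3.77-fold. Without WFA replicate 3 it was 0.92 (edgeR adjusted p = 8.21e-06), below the 2-fold limit.

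DDIT4 and SESN2 encode inhibitors of the growth kinase complex mTORC1, DDIT4 through the TSC complex and SESN2 through the GATOR2 complex. DDIT4 (chr10:72273920-72276036, plus strand), also known as REDD1, had 102, 61 and 87 counts with DMSO and 157, 223 and 248 with WFA. In CPM these were 7.17, 4.82 and 7.25 against 12.8, 18.0 and 23.1. Its DMSO libraries spread more than those of any other member (SD of 21.6% of the mean), and its lowest DMSO library belonged to the pair with the largest change. The log2 fold change was 1.48 (SE 0.21, edgeR adjusted p = 3.91e-05), with 0.82, 1.86 and 1.65 in pairs 1, 2 and 3. Exons of the antisense gene DDIT4-AS1 cover 48.5% of the exon length of DDIT4, so reads of both genes cannot be told apart without strand. No counts were listed under the symbol DDIT4-AS1, and its part in the DDIT4 count was not tested.
SESN2 (chr1:28259527-28282491, plus strand), a sestrin that senses leucine, had 10.6, 9.79 and 11.1 CPM with DMSO and 28.3, 37.0 and 54.0 CPM with WFA. The groups were far apart, and WFA replicate 3 was again the highest. In the fit the log2 fold change was 1.92 (SE 0.19, edgeR adjusted p = 1.18e-06), with 1.41, 1.90 and 2.27 in the 3 pairs. The log2 ratio of SESN2 to DDIT4 was 0.72 ± 0.25 with DMSO and 1.13 ± 0.09 with WFA (SD, n = 3 each, exact permutation p = 0.1). In replicates 1, 2 and 3 that ratio was 0.55, 1.00 and 0.60 with DMSO and 1.13, 1.03 and 1.22 with WFA. It hardly moved in pair 2. The log2 ratio of DDIT3 to ATF4 went from -2.83 ± 0.02 to -1.64 ± 0.21 (SD, n = 3 each, exact permutation p = 0.1), and the change of DDIT3 was larger than that of ATF4 in each pair.

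**Figure D3:**
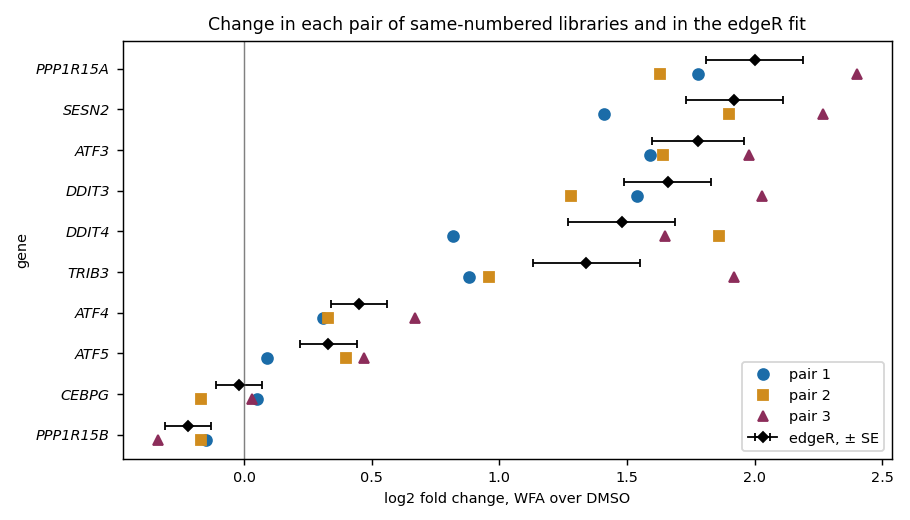
Log2 fold change of WFA over DMSO for each gene, in each pair of same-numbered libraries (coloured symbols) and in the edgeR fit over all 6 libraries (black, ± standard error). Pair 3 gives the largest rise in 7 of the 8 genes called higher, and the changes of CEBPG lie on both sides of 0.

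The size of the response differed between the experiments. WFA replicate 3 was the highest WFA library for 9 of the 10 genes, PPP1R15B being the exception, and for all 6 genes over 2-fold higher. Among all tested genes over 2-fold higher, 55.8% were highest in that library. Its level exceeded the next WFA library by 1.25 times for ATF3 and by 1.89 times for TRIB3, the lowest and highest of the 6 genes. The rise in pair 3 was the largest of the 3 for 7 of the 8 members called higher, DDIT4 being the exception, and for 53.1% of all genes called higher. PPP1R15B also fell furthest in pair 3. WFA replicate 3 also had the lowest total count of the 6 libraries, 11006035, and the part of depth in this difference was not tested.
The spread among the WFA libraries was wide for 5 of the 6 genes over 2-fold higher. The SD was 43.8% of the mean for TRIB3, 38% for PPP1R15A, 32.9% for SESN2, 31.4% for DDIT3 and 28.6% for DDIT4, where the median of all tested genes was 10.2%. ATF3, with 18.2%, was close to ATF4 with 18.4%. In the DMSO libraries the SD was between 0.427 and 8.66% of the mean for 9 of the 10 genes, with DDIT4 above that range, and the median of all tested genes was 9.04%. The log2 fold changes of the 3 pairs had an SD of 0.576 for TRIB3, which was larger than that of 95.4% of the tested genes, and DDIT4, SESN2, PPP1R15A and DDIT3 exceeded 94.8, 90.4, 89.2 and 87.5% of the tested genes. The other 5 members varied less between pairs, with ATF3, ATF4 and ATF5 above 64.3, 61.6 and 61.5% of the tested genes and CEBPG and PPP1R15B above 31.3 and 26.5%.

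**Figure D4:**
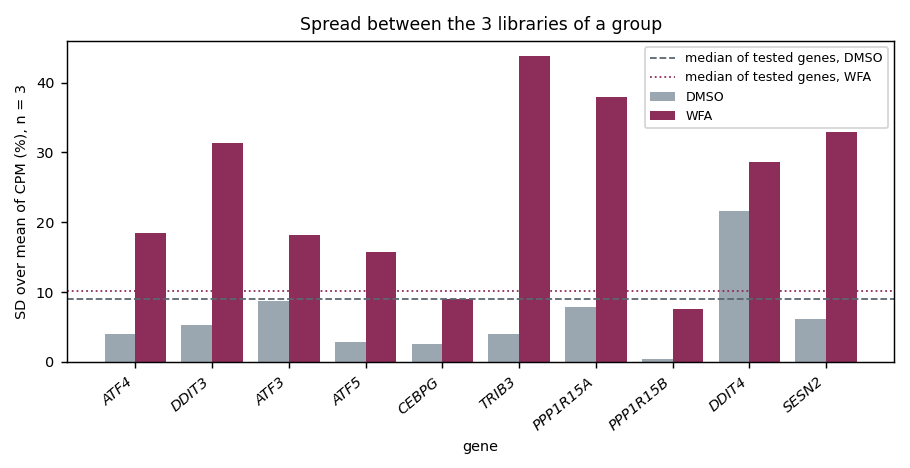
SD of CPM as a percent of the mean among the 3 DMSO and the 3 WFA libraries, for each gene, with lines at the median of all tested genes (9.04% with DMSO and 10.2% with WFA). The bars of WFA exceed those of DMSO for each gene, most for TRIB3 at 43.8 against 4.07%.

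Levels were compared between genes after division by the exon length of GENCODE 29. That length includes the parts of DDIT3, ATF5 and DDIT4 that exons on the opposite strand cover. The effect of this overlap on the order was not tested. With DMSO the order ran from ATF4 (86.3 ± 3.47 CPM per kilobase) through PPP1R15B (51.0 ± 0.218), CEBPG (33.7 ± 0.872), DDIT3 (23.3 ± 1.24), ATF5 (16.0 ± 0.451), PPP1R15A (15.3 ± 1.19), TRIB3 (12.7 ± 0.518), DDIT4 (3.67 ± 0.791) and SESN2 (3.03 ± 0.188) to ATF3 (1.55 ± 0.134), each as mean ± SD of 3 libraries. ATF5 and PPP1R15A overlapped in their libraries, as did DDIT4 and SESN2, while the other neighbours did not.
With WFA, DDIT3 (74.0 ± 23.3) and PPP1R15A (61.3 ± 23.3) came next after ATF4 (118 ± 21.7), above PPP1R15B (43.9 ± 3.36) and CEBPG (33.2 ± 2.97), again in CPM per kilobase (SD, n = 3 each). Libraries of DDIT3 and PPP1R15A overlapped, and so did those of PPP1R15A and PPP1R15B, of CEBPG and TRIB3, and of SESN2 and DDIT4. ATF3 remained the lowest at 5.35 ± 0.976 (SD, n = 3).

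The genes upstream of ATF4 on a list of 19 (eIF2 subunits, the eIF2 kinases, the exchange factor eIF2B, protein phosphatase 1 and its adaptors) included more lower than higher calls. All 19 were tested, and 9 were lower and 3 higher in the WFA libraries by the same test, with a median log2 fold change of -0.23. For this and each further list the background in that test is the 24.7% lower and 25.8% higher among all genes tested. EIF2S1, the subunit that carries the phosphorylation site, fell by 0.78 on the log2 scale (SE 0.08, edgeR adjusted p = 2.13e-06). EIF2B5, the catalytic subunit of eIF2B, had a log2 fold change of -0.63 and EIF2B3 of -0.57 (edgeR adjusted p = 1.58e-05 and 0.000167). EIF2AK3, which encodes the kinase PERK of the endoplasmic reticulum, rose with a log2 fold change of 0.66 (SE 0.13, edgeR adjusted p = 0.000548). Scaled by total counts alone, 11 were lower and 1 was higher. Over all 12854 genes tested, that scaling gave 3875 lower and 2763 higher, with a median log2 fold change of -0.063. Those values are the background wherever total counts are named for a list.

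Known ATF4 targets in amino acid supply were higher in part. Of 13 genes of amino acid and one-carbon synthesis, 7 were higher and 2 lower, and their log2 fold changes had a median of 0.61. With the replicate block 9 were higher, and in DESeq2 with that block 6. ASNS, asparagine synthetase, had 22, 23.1 and 27.0 CPM with DMSO and 45.6, 41.9 and 87.5 CPM with WFA (log2 fold change of 1.27, SE 0.21, edgeR adjusted p = 0.00017). PSAT1 of serine synthesis had 99.9, 98.2 and 112 against 165, 186 and 270 CPM (log2 fold change of 1.00, SE 0.14, edgeR adjusted p = 3.85e-05). For both, WFA replicate 3 was the highest library. ALDH18A1, the first enzyme of proline synthesis, and MTHFD1L of mitochondrial one-carbon metabolism were lower, at -0.67 and -0.49 (edgeR adjusted p = 0.000408 and 0.000633).
Of 9 amino acid transporters 8 were tested, with a median of 1.12, and 5 were higher and 1 lower, or 5 and 2 with the replicate block, in DESeq2 and with total counts. SLC7A11, the cystine importer, had the largest change (log2 fold change of 2.38, SE 0.22, edgeR adjusted p = 5.62e-07). SLC7A5, SLC3A2 and SLC38A2 rose by 1.67, 1.33 and 0.92 on the log2 scale (edgeR adjusted p = 1.18e-07, 2.44e-06 and 4.68e-06). SLC1A5, a glutamine importer, was lower at -0.32 (edgeR adjusted p = 0.0233).
The 12 tRNA synthetase genes showed little common movement, with a median of 0.03, or -0.06 with total counts, where all tested genes had -0.063. AARS was higher (log2 fold change of 0.75, SE 0.12, edgeR adjusted p = 7.4e-05), and LARS, NARS and EPRS were lower at -0.76, -0.26 and -0.24 (edgeR adjusted p = 4.46e-06, 0.0169 and 0.0321). With the replicate block 2 were higher and 4 lower.

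Other targets of ATF4 or CHOP in stress and cell death had a median log2 fold change of 1.13 over 10 tested genes of 11, with 7 higher and 3 lower. STC2, CHAC1, GDF15 and NUPR1 had log2 fold changes of 2.75, 2.31, 2.27 and 1.88 (SE 0.46, 0.36, 0.38 and 0.18, edgeR adjusted p = 0.000166, 8.23e-05, 0.000165 and 9.46e-07). Levels of STC2 and GDF15 were low, at 0.823 ± 0.524 and 0.487 ± 0.149 CPM with DMSO. With WFA they were 5.53 ± 3.36 and 2.42 ± 0.894 CPM (SD, n = 3 each). CHAC1, which degrades glutathione, stood at 1.48, 1.18 and 1.67 CPM with DMSO and at 3.68, 6.77 and 11.3 CPM with WFA. VLDLR and BCL2L11, the latter encoding the death-promoting protein BIM, were lower at -0.44 and -0.41 (edgeR adjusted p = 0.00106 and 0.00184).
The paralogs of the effectors also rose. All 5 of TRIB1, TRIB2, DDIT4L, SESN1 and SESN3 were higher and 0 were lower in edgeR's test, also at an unadjusted p-value under 0.05 and in DESeq2, and the median of their log2 fold changes was 0.84. In DESeq2 with the replicate block, and without DMSO replicate 1 or 2, WFA replicate 1, or both libraries of replicate 1 or of replicate 2, 4 of the 5 were higher. SESN3 and TRIB1 had 0.84 and 0.89 (edgeR adjusted p = 5.03e-05 and 9.85e-05), where SESN2 and TRIB3 had 1.92 and 1.34. The differences between paralogs were not tested.
Of the 15 bZIP relatives of the factors 4 were higher and 5 lower, shares near those of all genes tested, with a median of 0.11. CREM and JDP2 were higher at 1.48 and 0.81 (edgeR adjusted p = 2.31e-05 and 0.000113). CREB1, CEBPA and CEBPD, the latter pair being myeloid differentiation factors, were lower at -0.65, -0.58 and -0.60 (edgeR adjusted p = 1.97e-05, 7.54e-05 and 0.00297).

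Genes of the parallel ATF6 and XBP1 branches had a median log2 fold change of 0.37 over 19 tested genes, with 12 higher and 1 lower, and 2 over 2-fold higher. DNAJC3, an inhibitor of PERK, had 1.05 and DNAJB9 had 0.92 (edgeR adjusted p = 4.72e-07 and 2.25e-05), whereas EDEM1 was lower at -0.42 (edgeR adjusted p = 0.000684). The list's median was 0.45, 0.30 and 0.47 in pairs 1, 2 and 3.
The complexes on which DDIT4 and SESN2 act gave no common direction, with a median of 0.08 (-0.02 without replicate 3) over 21 tested genes, 7 higher and 3 lower, or 6 higher and 7 lower with total counts. TSC1 and AKT1S1, which restrain mTORC1, were higher at 0.70 and 0.80 (edgeR adjusted p = 8.66e-06 and 2.77e-05). SEH1L and MIOS of the GATOR2 complex were lower at -1.19 and -0.87 (edgeR adjusted p = 6.14e-07 and 1.38e-06).

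**Figure D5:**
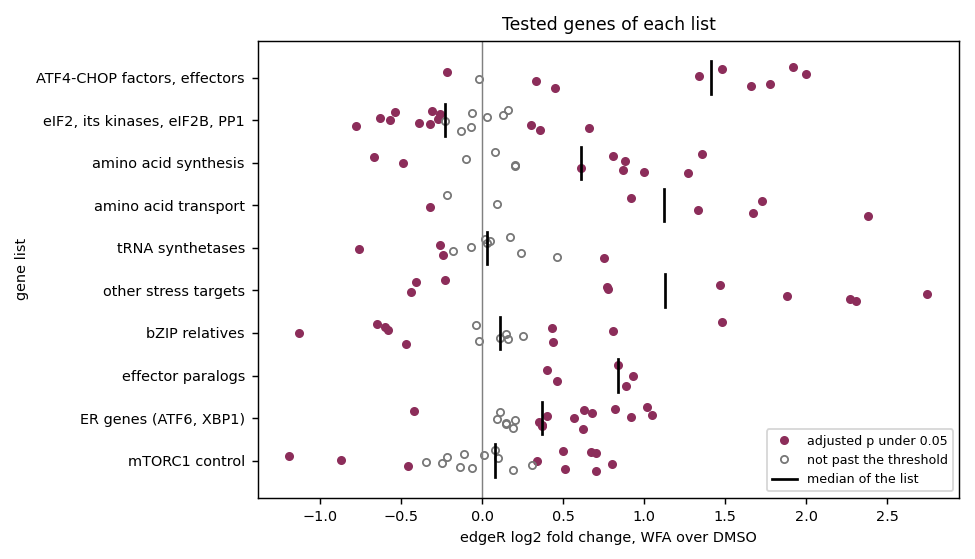
Log2 fold change of WFA over DMSO in the edgeR fit for each tested gene of the 10 lists, filled where the adjusted p-value was under 0.05, with a black bar at the median of each list. The medians run from -0.23 for the eIF2 list to 1.41 for the ATF4-CHOP factors and effectors.

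The genes with the pattern most like the mean of the 10 standardized profiles, by Pearson correlation of log2 CPM over the 6 libraries, included JUN (0.9988), PSAT1 (0.9966), DPF2 (0.9963) and ID3 (0.9949). Those are 4 of the 5 most alike, and the other one is not reported here. JUN, a bZIP partner of ATF factors, had 33.0, 33.6 and 39.2 CPM with DMSO and 63.4, 63.5 and 101 CPM with WFA. Its WFA replicates 1 and 2 were thus alike and replicate 3 higher, as for PPP1R15A. The members' own correlations with that mean, to which each contributes, were 0.95 to 0.99 for 7 genes that rose, 0.85 for ATF5, 0.11 for CEBPG and -0.99 for PPP1R15B. These correlations rest on 6 libraries that share the WFA contrast and are given as a description.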

How the data were processed

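The 6 libraries, 3 for each of WFA and DMSO at 6 h, were made from THP1 RNA with TruSeq RNA v2, which does not mark strand. The authors deposited whole-number counts per gene symbol without normalization. They also deposited a scaled score per library (the count divided by a size factor, rounded) and their own fold changes and p-values, which were not used. The submitters' processing notes name bcl2fastq 2.19, Trimmomatic, Bowtie2, Picard, featureCounts, DESeq2 and hg38. The annotation and the treatment of multiply mapped reads are not given in the sources used here.

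Counts were compared with edgeR 4.0.16 in R 4.3.3 (TMM, filterByExpr with a minimum count of 10, quasi-likelihood test), with Benjamini-Hochberg adjustment over 12854 genes and a threshold of 0.05. P-values measure the spread between libraries of 3 experiments. Pair values and ratios use log2 CPM with a prior count of 2. The fit was tested on simulated data, which gave every gene the same variation between libraries beyond counting noise and no difference between pairs. Alternatives were the replicate number as a block, DESeq2 1.42.0, other scalings, no filter, a robust fit and leaving out libraries. DESeq2 with the block and leaving out whole experiments were added after seeing the data. No pair of libraries within a group was alike within sampling noise (chi-square per gene of 5.98 to 11.1). Same-numbered libraries share a date code in the labels and deviated together from their group means (correlations of 0.217, 0.333 and 0.245), so the numbers pair the samples.

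The members and lists were chosen with earlier results of these data known. Genes named from the other 9 lists are up to 4 with the smallest p-value in the direction of most calls and up to 2 against it. Of the genes most like the members, 1 of 5 is not reported. The depth behind each value is a total of 11006035 to 13872810 counts per library.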

Additional observations from a re-analysis of the deposited data

How the results depend on the processing

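The 8 alternatives for each of the 3 ratios kept their direction, and ATF4, DDIT3, ATF3, TRIB3, PPP1R15A, DDIT4 and SESN2 kept direction and call in each of 17 alternatives. With the replicate block 8 members were higher and 1 lower, the log2 fold changes were 1.63 for DDIT3 and 1.94 for PPP1R15A, the ratio of PPP1R15A to PPP1R15B rose by 2.15 on the log2 scale, and no member's call changed. Members higher numbered 7 or 8 throughout. ATF5 was 0.25 with total counts (edgeR adjusted p = 0.0896), between 0.26 and 0.34 in the fits without 1 library that lost its call, 0.46 without WFA replicate 1, and 0.28 without replicate 2 and 0.26 without replicate 3 in both groups. PPP1R15B, the 1 member lower, had -0.23 without the low-count filter (edgeR adjusted p = 0.0501), and 0 members were then lower in edgeR's test, 1 at an unadjusted p-value under 0.05 and 1 in DESeq2. It ranged from -0.30 to -0.15 over all 17 alternatives, between -0.24 and -0.15 in the fits without 1 library that lost its call, and -0.25, -0.25 and -0.16 without replicate 1, 2 or 3 in both groups. Over the fits that left out libraries, members lower numbered 0 to 1. CEBPG, never past the threshold in these fits, ranged from -0.07 to 0.05 over the fits without 1 library, and was 0.05 without WFA replicate 2 and 0.03 without replicate 2 in both groups. Fewer libraries leave fewer degrees of freedom, and the cause of the other changes was not tested. Genes higher over the whole table numbered 2640 to 3877 and genes lower 2540 to 3875.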
